A study of Mus musculus with 12 samples.

Results

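The nuclear receptors described here are 35 genes of the mouse superfamily, taken from a list of names drawn up with earlier results of these arrays known, from retinoid, thyroid hormone and steroid receptors to orphan receptors. A receptor counted as measured where a probe set of the array's annotation named that gene and no other, which held for 33 of the 35, each with 1 probe set of the 23991 on the array. Nr1h2, encoding LXR beta, and Esrra, encoding the estrogen-related receptor alpha, had no such probe set and are not analysed here. RNA came from the small intestine of wild-type BALB/c mice on day 14 after allogeneic transplantation. All 12 mice had been irradiated and had received bone marrow and T cells of C57BL/6N donors, a model of acute graft-versus-host disease, so no untransplanted gut was among them. A total of 6 were injected daily into the peritoneum with tauroursodeoxycholic acid (TUDCA) at 200 mg/kg, and 6 with 200 µl of vehicle alone. TUDCA is a taurine-conjugated bile acid. The labels give neither the age nor the sex of the mice.

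Values are log2 intensities from 1 array per mouse, normalised by the authors with RMA, which makes the distributions of all arrays alike. Sample numbers given by the labels formed a low range (2 TUDCA and 4 vehicle arrays) and a high range (4 TUDCA and 2 vehicle arrays), so each difference was estimated within the ranges in limma, a linear model with moderated variances. Adjusted p-values are Benjamini-Hochberg values over all 23991 probe sets, and "passed" means an adjusted p under 0.05. They treat the arrays as separate mice, which rests on the sample numbers alone. As a gauge of dim signal, 1379 probe sets of olfactory and vomeronasal receptor genes were used, 95% of which had mean values below 5.26. A description field of the labels names CXCL12-abundant reticular cells in place of intestine. None of the 11 measured markers of intestinal epithelium was dim by that gauge in both groups, and their mean log2 value per array lay from 11.67 to 11.84 with TUDCA and from 11.67 to 11.80 with vehicle. Of 10 reticular cell markers 2 were dim, with array means from 6.28 to 6.66 with TUDCA and from 6.26 to 6.58 with vehicle. Since whole tissue was measured, fewer cells of a type and less RNA per cell cannot be told apart.

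Nuclear receptors are transcription factors with a DNA-binding domain of zinc fingers and a ligand-binding domain, through which small lipophilic molecules such as steroids, retinoids, thyroid hormone, fatty acids and bile acids can change transcription directly. Many bind DNA as heterodimers with a retinoid X receptor (RXR), at sites built from the half-site AGGTCA. Without an agonist several of them recruit corepressors, which are exchanged for coactivators when ligand is bound. In the small intestine HNF4A and HNF4G maintain the absorptive enterocyte programme, PXR responds to bile acids and foreign compounds, LXRs govern sterol efflux, and the glucocorticoid receptor mediates the response to corticosteroids.

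Of the 33 receptors, 2 rose with TUDCA and 2 fell. Pparg, encoding the fatty acid sensor PPAR gamma, was 1.74-fold higher, and Nr1d2, encoding the circadian repressor REV-ERB beta, was 1.41-fold higher. Nr3c1, encoding the glucocorticoid receptor, was lower, at 0.819 times the vehicle level. Rxrg, encoding RXR gamma, also gave lower values, but its signal was dim in both groups, so no fold is given, and it drops out where dim probe sets are left out of the fit. These 4 made up 12.1% of the receptors, where 2.52% of all probe sets passed (1.00% higher and 1.52% lower). Since the list was not drawn up blind to these data, that share is a description. Of 11 further nuclear receptors measured on the array 0 passed in limma, with 1 at an unadjusted p under 0.05. Of these 11, 5 were dim in both groups. Without TUDCA replicate 1, none of the 33 receptors passed in limma, where 91 probe sets rose and 151 fell. At an unadjusted p under 0.05 the share was 30.3% (10 receptors), against 14.1% of all probe sets. Of the receptors 2 were dim in both groups, against 8763 of the 23991 probe sets, so these shares compare sets of unlike signal. How far that enters the shares was not tested. Most of the family moved little. The median log2 difference of the 33 was −0.04, with 13 positive and 20 negative, and that of all probe sets was 0.01. The median size of the difference without its sign was 0.08 for the receptors and 0.09 for all probe sets.

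**Figure D1:**
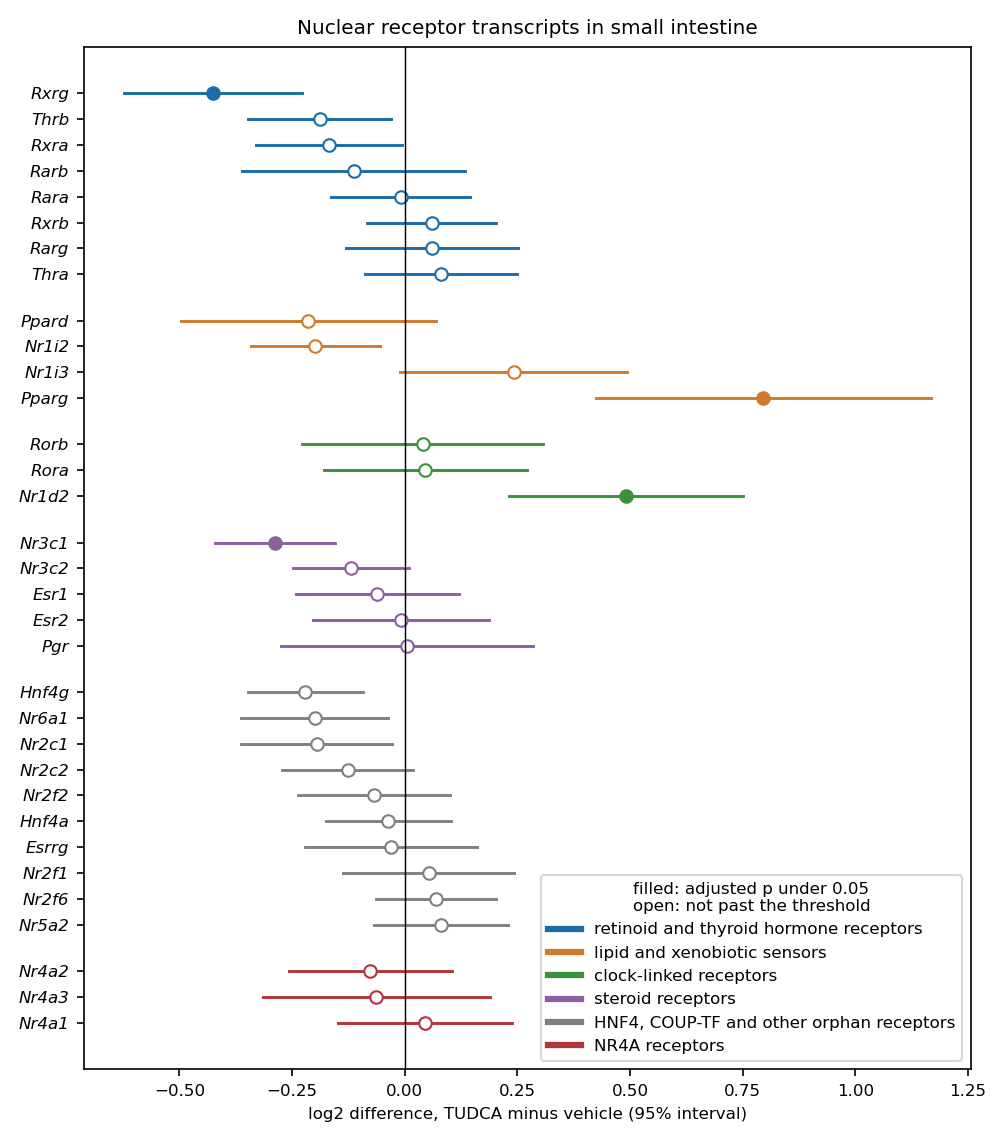
Log2 difference (TUDCA minus vehicle, horizontal axis) of each of the 33 measured receptors with its 95% interval from limma, grouped and coloured by role. Filled points mark the 4 receptors that passed over all probe sets, namely Pparg at 0.80, Nr1d2 at 0.49, Rxrg at −0.43 (dim in both groups) and Nr3c1 at −0.29, and open points the rest.

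PPAR gamma drives fat cell differentiation, and in the gut it is expressed in epithelial cells and macrophages. Pparg had log2 values of 7.24 at the lowest, 7.55 at the median and 7.77 at the highest of the TUDCA arrays, against 6.18, 6.77 and 7.28 in the vehicle arrays. The TUDCA arrays thus lay close together, the vehicle arrays were spread over more than a log2 unit, and the groups overlapped only between the lowest TUDCA array and the highest vehicle array. Means were 7.56 ± 0.19 with TUDCA and 6.72 ± 0.44 with vehicle (SD, n = 6 each). The log2 difference was 0.80 ± 0.17 (SE, 95% interval 0.42 to 1.17, adjusted p = 0.0248 in limma), with all 6 TUDCA arrays above the vehicle mean of their number range. It was 0.71 in the low range and 0.88 in the high range. Pparg also had the widest spread between mice among the 33 receptors, with a residual SD of 0.34 where the median receptor had 0.13. Without TUDCA replicate 1 the adjusted p was 0.104, and without vehicle replicate 5 the difference was 0.58 (adjusted p = 0.0584).

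The other PPAR measured among the members, Ppard, encoding the fatty acid receptor PPAR delta, did not pass (log2 difference −0.21, 95% interval −0.50 to 0.07, adjusted p = 0.518). Of 16 measured genes on a list of PPAR targets, 1 fell and none rose, with 3 at an unadjusted p under 0.05 and a median difference of −0.17. The gene that fell was Vnn1, a pantetheinase (−1.53 ± 0.29 SE, adjusted p = 0.0119), a call that ended without TUDCA replicate 1 (adjusted p = 0.0565). It was at −2.10 in the low and −0.96 in the high number range. PPAR-responsive genes of lipid storage and oxidation, picked from the list after their values were seen, included Plin2, a lipid droplet coat protein, at 0.06 and Cpt1a, the mitochondrial carnitine palmitoyltransferase, at 0.08. Fabp4, the fatty acid-binding protein of adipocytes and macrophages, was at −0.65 (95% interval −1.85 to 0.56), and Pdk4, a kinase that restrains pyruvate oxidation, was at −0.55 (95% interval −1.16 to 0.06). Cidec, another lipid droplet protein, was at 0.43 (95% interval −0.04 to 0.89). Plin2, Cpt1a, Fabp4, Pdk4 and Cidec did not pass. Of the 16 differences on the list 6 were positive and 10 negative. Fat cells express Pparg, and adipocyte markers had 0 of 9 genes past the threshold in limma (3 at an unadjusted p under 0.05), and 8 of the 9 differences were negative. Their mean level per array lay from 6.21 to 7.58 with TUDCA and from 6.56 to 7.98 with vehicle, and Lep, the leptin gene, was dim in both groups. The lists of adipocyte markers and PPAR targets share genes, among them Adipoq, Fabp4, Cidec and Plin4, so they are not separate readings. The part of fat in the Pparg values was not tested.

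REV-ERB beta represses clock genes at AGGTCA half-sites that have an A/T-rich flank, alongside its relative REV-ERB alpha, and competes there with the ROR activators. Nr1d2 had log2 values of 7.61, 7.96 and 8.25 at the lowest, median and highest of the TUDCA arrays, against 7.27, 7.37 and 7.65 in the vehicle arrays. Only the lower end of the TUDCA arrays overlapped with the upper end of the vehicle arrays. Means were 7.92 ± 0.26 with TUDCA and 7.44 ± 0.17 with vehicle (SD, n = 6 each), and the log2 difference was 0.49 ± 0.12 (SE, 95% interval 0.23 to 0.75, adjusted p = 0.0462 in limma). All 6 TUDCA arrays lay above the vehicle mean of their range, and the difference was 0.36 in the low range and 0.62 in the high range. This call is close to the threshold. It ended when any 1 of 8 arrays was left out, namely TUDCA replicates 1, 3, 4 and 6 and vehicle replicates 2, 3, 5 and 6, with adjusted p from 0.0298 to 0.173 over all 12 omissions and differences from 0.43 to 0.60.

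The RORs, Rora and Rorb, did not pass, at log2 differences of 0.05 (95% interval −0.18 to 0.27) and 0.04 (95% interval −0.23 to 0.31). The group means of Rorb, 5.28 with TUDCA and 5.23 with vehicle, lay on either side of the gauge of dim signal, so its difference says little. Among 13 measured genes on a list of clock receptor targets, 1 rose and 2 fell, with a median of −0.03. Of these 13 differences 6 were positive and 7 negative. Npas2 is a CLOCK-like activator of the clock and a gene that REV-ERBs repress. It ranged from 8.29 to 8.73 with TUDCA, against 8.77 to 9.17 with vehicle. Its groups thus did not overlap, as was so for 1.98% of all probe sets. Its log2 difference was −0.43 ± 0.09 (SE, adjusted p = 0.0215), and the call ended on omitting TUDCA replicate 1 or vehicle replicate 6 (largest adjusted p = 0.0915). Nfil3, encoding the repressor E4BP4, which is likewise a REV-ERB target, was at −0.49 ± 0.10 (SE, adjusted p = 0.0215), and missed the threshold when TUDCA replicate 1 or 2 or vehicle replicate 6 was omitted (largest adjusted p = 0.102). Its difference was −0.69 in the low and −0.30 in the high range. Bhlhe40, encoding the repressor DEC1, was the gene that rose, at 0.54 ± 0.11 (SE, adjusted p = 0.0148), and missed it when TUDCA replicate 1 or 2 was omitted (largest adjusted p = 0.0756). A pair of further clock genes were looked up after their values were known. Arntl, encoding the core activator BMAL1, was at −0.27 (95% interval −0.44 to −0.11, adjusted p = 0.0842) and had groups that did not overlap. Nr1d1, encoding REV-ERB alpha, was at 0.27 (95% interval −0.07 to 0.61, adjusted p = 0.491), and like Nr1d2 lay above the vehicle mean of the same range on each of the 6 TUDCA arrays. The labels give no hour of tissue collection.

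The windows of 250 bases before the annotated starts of Nr1d2, Pparg and Rxrg are shown because these receptors passed the test and their products or partners bind the half-site named above. Nr3c1, which also passed, had no entry among the windows used. Sequences are those of RefSeq (GRCm38.p6), written along the strand of the gene, with AGGTCA matches in capitals and everything else in lower case.
Nr1d2, chr14:18239107-18239356, minus strand: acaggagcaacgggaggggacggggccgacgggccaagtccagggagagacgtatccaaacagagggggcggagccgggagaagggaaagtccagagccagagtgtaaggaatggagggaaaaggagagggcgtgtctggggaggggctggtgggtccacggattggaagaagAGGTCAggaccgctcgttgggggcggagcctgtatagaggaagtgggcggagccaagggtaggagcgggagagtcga
Pparg, first start, chr6:115360894-115361143, plus strand: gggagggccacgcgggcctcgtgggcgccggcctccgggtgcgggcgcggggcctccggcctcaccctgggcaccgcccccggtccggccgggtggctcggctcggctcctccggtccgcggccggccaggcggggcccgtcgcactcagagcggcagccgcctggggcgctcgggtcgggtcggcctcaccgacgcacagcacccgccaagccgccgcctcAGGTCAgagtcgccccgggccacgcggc
Pparg, second start, chr6:115362099-115362348, plus strand: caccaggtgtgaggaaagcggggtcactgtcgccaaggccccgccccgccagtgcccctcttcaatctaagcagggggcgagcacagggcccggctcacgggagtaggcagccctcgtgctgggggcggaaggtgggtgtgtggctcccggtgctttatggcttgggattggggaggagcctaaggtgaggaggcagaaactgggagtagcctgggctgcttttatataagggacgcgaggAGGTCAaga
Rxrg, second start, chr1:167618015-167618264, plus strand: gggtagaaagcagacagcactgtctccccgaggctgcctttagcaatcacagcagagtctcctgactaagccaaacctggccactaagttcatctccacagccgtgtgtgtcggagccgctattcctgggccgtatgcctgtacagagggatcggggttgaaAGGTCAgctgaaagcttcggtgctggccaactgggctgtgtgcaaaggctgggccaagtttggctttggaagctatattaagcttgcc
The half-site began 77 bases before the start of Nr1d2, 28 bases before the first and 9 bases before the second start of Pparg, and 88 bases before the second start of Rxrg. A further start of Pparg and a further start of Rxrg had no match. Searched on both strands, AGGTCA occurred in 9 of 49 windows of the 30 receptors with an entry (18.4%), and in 14% of all 32851 RefSeq windows of the same length. No receptor window held the half-site as a pair in 1 direction spaced by 1 to 5 bases, an arrangement present in 0.0731% of all windows. The E-box CACGTG, bound by CLOCK and BMAL1, occurred in 4 of the 49 receptor windows (8.16%), none of them of Nr1d2, Pparg or Rxrg, and in 6.02% of all windows. The probe set of each gene gives 1 value, so the starts of Pparg cannot be told apart in these data.

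**Figure D2:**
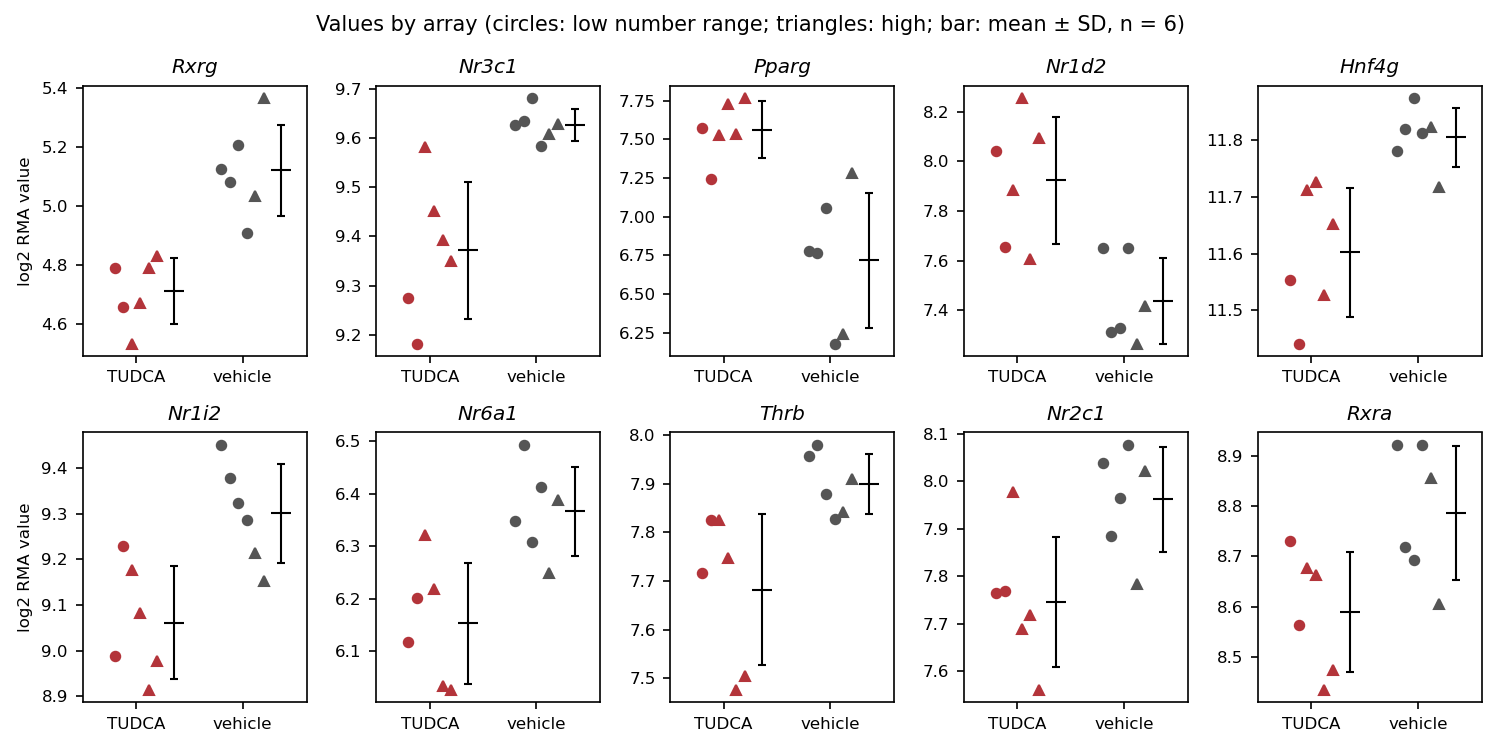
Log2 value (vertical axis, its own scale in each panel) on every array for the 10 receptors with an unadjusted p under 0.05, TUDCA arrays at the left and vehicle arrays at the right of each panel, with circles for the low and triangles for the high number range and bars for the mean ± SD (n = 6). Nr3c1, Rxrg and Thrb show no overlap between the groups, and Pparg shows vehicle arrays spread from 6.18 to 7.28.

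The glucocorticoid receptor is a steroid receptor that binds DNA as a homodimer and restrains inflammatory gene expression when corticosteroids are present. Nr3c1 had log2 values of 9.18, 9.37 and 9.58 at the lowest, median and highest of the TUDCA arrays, against 9.58, 9.63 and 9.68 in the vehicle arrays. The vehicle arrays were almost identical, and every TUDCA array lay below all of them, the highest by less than the rounding of these values. Means were 9.37 ± 0.14 with TUDCA and 9.63 ± 0.03 with vehicle (SD, n = 6 each). The log2 difference was −0.29 ± 0.06 (SE, 95% interval −0.42 to −0.15, adjusted p = 0.0244 in limma), with −0.40 in the low range and −0.17 in the high range. The call ended without TUDCA replicate 1 (adjusted p = 0.0999), TUDCA replicate 2 (difference −0.24, adjusted p = 0.115) or vehicle replicate 2 (adjusted p = 0.0504). It also missed the threshold without the number range as a term (adjusted p = 0.0526).

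T and NK cells also express the glucocorticoid receptor. Of their 12 measured markers 4 fell and none rose, with a median difference of −0.33, and their mean level per array lay from 5.84 to 6.64 with TUDCA and from 6.56 to 7.15 with vehicle. The NK genes Ncr1 and Klrb1c were dim in both groups. The part of these cells in the lower Nr3c1 signal was not tested. Of 19 genes on a list of glucocorticoid and mineralocorticoid receptor targets 2 rose and none fell, with a median of −0.05. Errfi1, a feedback inhibitor of ErbB receptors, rose by 1.01 ± 0.10 (SE, adjusted p = 0.000174), with 8.77 to 9.24 in the TUDCA arrays and 7.82 to 8.34 in the vehicle arrays, and passed whichever array was left out. Tfcp2l1, a transcription factor of epithelial ducts, rose by 0.50 ± 0.10 (SE, adjusted p = 0.0133), a call lost when TUDCA replicate 1 or 2 was omitted (largest adjusted p = 0.0677), and was at 0.75 in the low and 0.26 in the high range. A pair of widely used glucocorticoid response genes, looked up after their values were known, had differences of opposite sign. Tsc22d3, encoding the glucocorticoid-induced leucine zipper, was at −0.33 (95% interval −0.58 to −0.09, adjusted p = 0.17), and Fkbp5, a co-chaperone of the receptor, was at 0.29 (95% interval 0.01 to 0.58, adjusted p = 0.343).

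The other steroid receptors gave no call. Nr3c2, the mineralocorticoid receptor of salt-transporting epithelium, had a log2 difference of −0.12 (95% interval −0.25 to 0.01) and the smallest spread between mice of all 33 receptors (residual SD 0.07). Esr1 and Esr2, the estrogen receptors, were at −0.06 (95% interval −0.24 to 0.12) and −0.01 (95% interval −0.20 to 0.19). Pgr, the progesterone receptor, was dim in both groups, at 4.33 ± 0.24 with TUDCA and 4.38 ± 0.24 with vehicle (SD, n = 6 each), so its difference of 0.01 says little. Enzymes that make or inactivate steroids had 0 of 12 measured genes past the threshold in limma, 4 at an unadjusted p under 0.05 and a median of 0.10. Hsd3b3, a steroid dehydrogenase, had the smallest p, at 0.72 ± 0.21 (SE, adjusted p = 0.0949), and was at 0.39 without vehicle replicate 5 (adjusted p = 0.163).

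RXRs are the shared partners of the retinoic acid receptors (RARs), thyroid hormone receptors, PPARs, LXRs, PXR and CAR. Rxrg had log2 values of 4.53, 4.73 and 4.83 at the lowest, median and highest of the TUDCA arrays, against 4.91, 5.11 and 5.37 in the vehicle arrays. The groups did not overlap, but both means lay under the gauge of dim signal. The log2 difference was −0.43 ± 0.09 (SE, 95% interval −0.62 to −0.23, adjusted p = 0.0243 in limma), with −0.36 in the low range and −0.49 in the high range. The fitted value is thus a difference between dim signals and not a measured fold, and no detection calls were used here. The call ended without TUDCA replicate 1 (adjusted p = 0.0552), TUDCA replicate 2 (adjusted p = 0.0853) or vehicle replicate 6 (difference −0.35, adjusted p = 0.107). Rxra, encoding the principal RXR of epithelia, had 8.43, 8.61 and 8.73 with TUDCA, against 8.61, 8.79 and 8.92 with vehicle (lowest, median, highest). These groups overlapped, and the difference of −0.17 ± 0.08 (SE) did not pass (adjusted p = 0.337). Rxrb was at 0.06 (95% interval −0.08 to 0.20). The differences of Rxrg and Rxra were negative and that of Rxrb positive, and the differences between the 3 genes were not tested.

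Thrb, encoding thyroid hormone receptor beta, had 7.48, 7.73 and 7.83 at the lowest, median and highest of the TUDCA arrays, against 7.83, 7.89 and 7.98 in the vehicle arrays. The groups were separated by less than the rounding of these values. Its log2 difference of −0.19 ± 0.07 (SE) did not pass (adjusted p = 0.254). With Rxrg and Nr3c1, it was 1 of 3 receptors whose groups did not overlap (9.09% of the receptors, 1.98% of all probe sets). Dim signal was more common among all probe sets than among the receptors. Thra, encoding the alpha receptor that predominates in intestinal crypts, was at 0.08 (95% interval −0.09 to 0.25), with −0.10 in the low range and 0.26 in the high range. Dio1, the deiodinase that activates thyroid hormone and is itself a classical target of the receptor, fell by 0.94 ± 0.19 (SE, adjusted p = 0.0172). Its values were 6.06, 6.57 and 7.00 with TUDCA, against 6.98, 7.57 and 7.88 with vehicle (lowest, median, highest), and the call ended on omitting TUDCA replicate 1 or vehicle replicate 6 (largest adjusted p = 0.0867). It was the only gene past the threshold among 6 of thyroid hormone metabolism (median −0.10) and among 8 thyroid hormone receptor targets (median −0.04), 2 lists that share it. Klf9, another target of that receptor looked up after its value was known, was at −0.05 (95% interval −0.23 to 0.14).

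The RARs bind retinoic acid made from vitamin A and take part in gut homing of lymphocytes. None of the 3 passed in limma, over all genes or at an unadjusted p under 0.05. Rara was at −0.01 (95% interval −0.16 to 0.15), Rarb at −0.11 (95% interval −0.36 to 0.13) and Rarg at 0.06 (95% interval −0.13 to 0.25). Of 22 measured genes of retinoid metabolism 1 rose and none fell, with a median of 0.03. It was Ttr, the plasma carrier of retinol-binding protein and thyroxine (0.38 ± 0.09 SE, adjusted p = 0.0319). The call ended when any 1 of 7 arrays was left out, with adjusted p up to 0.123. These were TUDCA replicates 1, 2 and 4 and vehicle replicates 1, 3, 4 and 5. It also ended without the number range as a term (difference 0.29, adjusted p = 0.202), with the replicate block and in either range alone. Of 12 RAR targets 1 fell and none rose, with a median of −0.12. Isx, the intestinal homeobox repressor of vitamin A uptake, was at −0.43 ± 0.10 (SE, adjusted p = 0.0437) and stayed past the threshold in 4 of 12 omissions (adjusted p up to 0.18), and it did not pass after a further quantile normalisation (adjusted p = 0.0641).

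PXR and CAR, the xenobiotic receptors, regulate cytochrome P450 genes, conjugating enzymes and exporters. Nr1i2, encoding PXR, had 8.91, 9.04 and 9.23 with TUDCA, against 9.15, 9.30 and 9.45 with vehicle (lowest, median, highest). The groups overlapped slightly, all 6 TUDCA arrays lay below the vehicle mean of their range, and the log2 difference of −0.20 ± 0.07 (SE, 95% interval −0.34 to −0.06) did not pass (adjusted p = 0.166). Nr1i3, encoding CAR, was at 0.24 (95% interval −0.01 to 0.49, adjusted p = 0.379). Of 16 measured PXR and CAR targets 1 rose and 2 fell, with a median of −0.11. Abcc3, an exporter of bile acids and conjugates, rose by 0.59 ± 0.08 (SE, adjusted p = 0.00172). Ces2a, an intestinal carboxylesterase, fell by 1.28 ± 0.18 (SE, adjusted p = 0.00184), with 8.90 to 9.88 in the TUDCA arrays and 10.47 to 11.44 in the vehicle arrays. Cyp3a25, a cytochrome P450, also fell (adjusted p = 0.00222), with 2.96 to 4.09 in the TUDCA arrays and 4.92 to 6.91 in the vehicle arrays. Its TUDCA arrays were all under the gauge of dim signal, so the size of that difference was not measured. All of these target calls held whichever array was left out, and that of Abcc3 ended without the number range as a term (difference 0.46, adjusted p = 0.0723). Cyp3a11, a classical PXR target looked up after its value was known, did not pass (adjusted p = 0.121), and its mean of 4.94 with TUDCA was likewise under the gauge, against 5.66 with vehicle.

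HNF4A and HNF4G are fatty acid-binding orphan receptors that bind DNA as homodimers or with each other and sustain enterocyte genes. Hnf4g had log2 values of 11.44, 11.60 and 11.73 at the lowest, median and highest of the TUDCA arrays, against 11.72, 11.82 and 11.87 in the vehicle arrays. Of all receptors it came closest to the threshold without passing, at −0.22 ± 0.06 (SE, 95% interval −0.35 to −0.09, adjusted p = 0.0705 in limma), with all 6 TUDCA arrays below the vehicle mean of their range. It passed when probe sets dimmer than the median were left out of the fit (adjusted p = 0.0441). Hnf4a, at 11.22 ± 0.13 with TUDCA and 11.29 ± 0.09 with vehicle (SD, n = 6 each), had a difference of −0.04 (95% interval −0.18 to 0.10, adjusted p = 0.868). Whether Hnf4g and Hnf4a differed in their response was not tested.

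Of 20 measured HNF4 targets 5 fell and 1 rose, with a median of −0.22. Maf, a transcription factor of enterocytes, was at −0.51 ± 0.07 (SE, adjusted p = 0.00244), with 9.38 to 9.74 in the TUDCA arrays and 9.84 to 10.14 in the vehicle arrays. Apob, the structural protein of chylomicrons, was at −0.53 ± 0.08 (SE, adjusted p = 0.00403), and G6pc, which releases free glucose from its phosphate, at −2.20 ± 0.36 (SE, adjusted p = 0.00498). Anpep, aminopeptidase N of the brush border, was at −0.23 ± 0.05 (SE, adjusted p = 0.0202). Maf, Apob and G6pc passed whichever array was left out, and Anpep did not pass without TUDCA replicate 1 (adjusted p = 0.1). After a further quantile normalisation the difference of Anpep was −0.06 (adjusted p = 0.599), so its call did not hold under that scaling. The Anpep call was kept with arrays centred on their medians and ended in either number range alone. The difference of G6pc was −3.28 in the low and −1.13 in the high number range, and it did not pass in the high range alone (adjusted p = 0.367). The list and that of enterocyte markers share genes. Of 14 enterocyte markers 6 fell and none rose, with a median of −0.22 and array means from 10.83 to 11.11 with TUDCA and from 11.04 to 11.32 with vehicle. Of the 11 markers of intestinal epithelium 1 rose and none fell, with a median of 0.11. Whether the share of enterocyte RNA differed, and how far that enters the values of Hnf4g and Nr1i2, was not tested.

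Among the other orphan receptors none passed. Nr6a1, the germ cell nuclear factor, had 6.03, 6.16 and 6.32 with TUDCA, against 6.25, 6.37 and 6.49 with vehicle (lowest, median, highest), and a log2 difference of −0.20 ± 0.08 (SE, adjusted p = 0.231). Nr2c1, the testicular receptor TR2, had 7.56, 7.74 and 7.98 with TUDCA, against 7.78, 7.99 and 8.08 with vehicle, and a difference of −0.20 ± 0.08 (SE, adjusted p = 0.264). In both genes the groups overlapped and 5 of 6 TUDCA arrays lay below the vehicle mean of their range. Nr2c2, the related TR4, was at −0.13 (95% interval −0.27 to 0.02). Nr5a2, encoding LRH-1, which drives steroid synthesis and renewal in the crypt, was at 0.08 (95% interval −0.07 to 0.23). The COUP transcription factors Nr2f1 and Nr2f2, found in mesenchymal and venous cells among others, and their relative Nr2f6 were at 0.05, −0.07 and 0.07, with intervals that together ran from −0.24 to 0.24. Endothelial markers had 0 of 13 genes past the threshold in limma and 0 at an unadjusted p under 0.05. The estrogen-related receptor Esrrg was at −0.03 (95% interval −0.22 to 0.16). The NR4A receptors, orphan receptors induced within minutes by many stimuli, lay between −0.08 (Nr4a2) and 0.04 (Nr4a1), with Nr4a3 at −0.06. The group means of Nr4a3, 5.23 with TUDCA and 5.29 with vehicle, lay on either side of the gauge of dim signal.

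**Figure D3:**
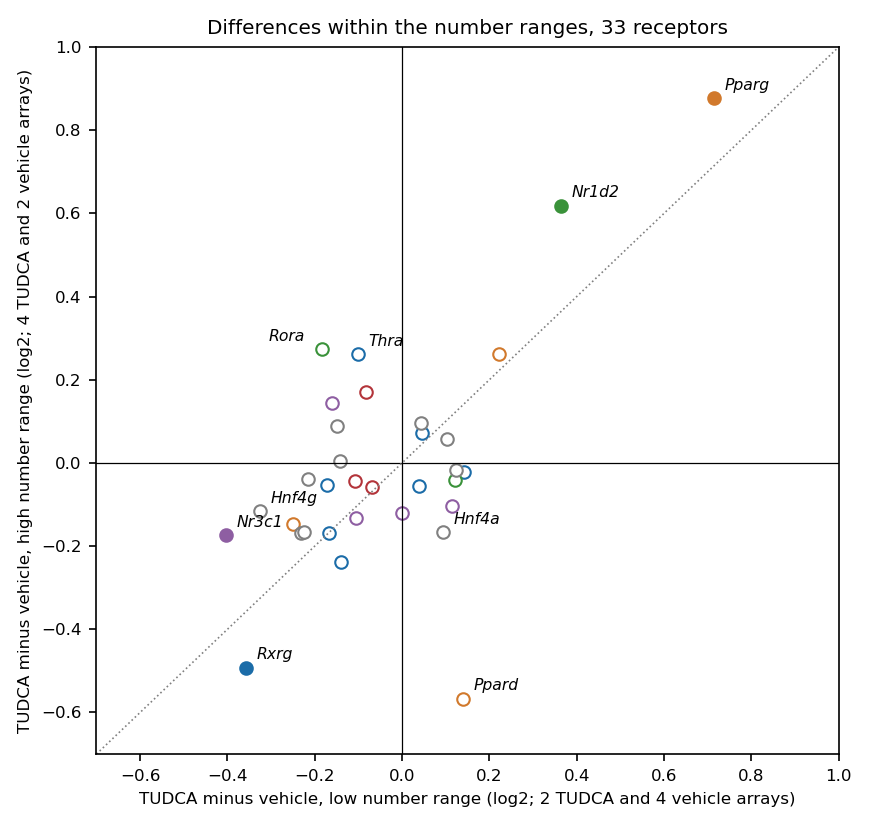
Log2 difference between TUDCA and vehicle in the low number range (horizontal axis; 2 TUDCA and 4 vehicle arrays) against that in the high number range (vertical axis; 4 TUDCA and 2 vehicle arrays) for 33 receptors, coloured by role, filled where the gene passed over all arrays. The 4 filled receptors lie in quadrants of equal sign, and Ppard lies at 0.14 in the low and −0.57 in the high range. Filled receptors were chosen by the same arrays, which favours equal signs.

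Across the number ranges 19 of the 33 receptors (57.6%) had differences of the same sign, where 55.3% of all probe sets did. The 10 receptors with an unadjusted p under 0.05 had the same sign in both ranges. They were picked by a difference estimated within these same ranges, so their agreement is largely set by that choice. A test of the interaction of treatment with number range called 0 of 23991 probe sets in limma after adjustment, and 7.68% had an unadjusted p under 0.05, among them the receptors Ppard, Thra, Rora and Hnf4a (adjusted p of 0.516 or more). Ppard had log2 differences of 0.14 in the low range and −0.57 in the high range, where vehicle replicate 5, at 9.75, stood above all other arrays. The ranges themselves, high minus low, were set apart in 0 probe sets after adjustment, with 10.5% of all at an unadjusted p under 0.05 and, of the receptors, Thra (−0.34) and Nr5a2 (−0.17).

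Cofactors carry the signal of all these receptors to chromatin. Of 15 measured coactivators 2 fell and none rose, with 7 at an unadjusted p under 0.05 and a median of −0.09. Ppargc1a, encoding PGC-1 alpha, a coactivator of PPARs, ERRs and HNF4A that promotes mitochondrial gene expression, had 7.97, 8.48 and 8.64 with TUDCA, against 8.57, 8.70 and 8.85 with vehicle (lowest, median, highest). The groups overlapped in this gene, and its log2 difference was −0.39 ± 0.08 (SE, adjusted p = 0.0133). The call ended without TUDCA replicate 1 (adjusted p = 0.0582) and without the number range as a term (adjusted p = 0.172). Cited2, a partner of the acetyltransferases CBP and p300, had 8.90, 9.48 and 9.65 with TUDCA, against 9.70, 9.92 and 10.04 with vehicle. Its groups did not overlap, with a difference of −0.42 ± 0.09 (SE, adjusted p = 0.0269), and the call stayed in 6 of 12 omissions (adjusted p up to 0.105). Corepressors had 0 of 9 genes past the threshold in limma, 1 at an unadjusted p under 0.05 and a median of −0.04. The smallest p among them was that of Nrip1, the corepressor RIP140, at −0.16 ± 0.07 (SE, adjusted p = 0.288).

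Targets of the remaining receptors varied. Of 13 LXR targets 3 fell and none rose, with 12 negative differences and a median of −0.10. The sterol half-transporters Abcg8 and Abcg5 were at −0.79 ± 0.07 (SE) and −0.53 ± 0.08 (SE), and Mylip, the ligase that degrades the LDL receptor, was at −0.45 ± 0.11 (SE, adjusted p = 0.0357). Mylip passed in 3 of 12 omissions only (adjusted p up to 0.156). The 10 LRH-1 targets hold the same Abcg5 and Abcg8 and no other gene that passed, with a median of −0.07. Mitochondrial genes on the list of ERR and PGC-1 targets had 0 of 13 past the threshold in limma, 3 at an unadjusted p under 0.05 and a median of 0.09, and Idh3a, a subunit of isocitrate dehydrogenase, had the smallest p (0.19 ± 0.07 SE, adjusted p = 0.225). Of 10 vitamin D receptor targets 1 fell, the calcium-binding protein gene S100g (−2.77 ± 0.36 SE), with a median of −0.04. FXR targets had 0 of 6 past the threshold in limma, with 0 at an unadjusted p under 0.05 and a median of −0.07. All 6 differences were negative, and Abcb11 was dim in both groups. Fgf15, the ileal hormone induced by bile acids, ranged from 6.40 to 9.99 with TUDCA and from 8.54 to 10.88 with vehicle. Its log2 difference ran from −1.44 to −0.59 over the 12 omissions (adjusted p of 0.263 or more in limma), and changed sign under 1 other alternative. The 11 further nuclear receptors had a median of −0.03, and the smallest p among them was that of Vdr, the vitamin D receptor, at −0.23 ± 0.10 (SE, adjusted p = 0.329).

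**Figure D4:**
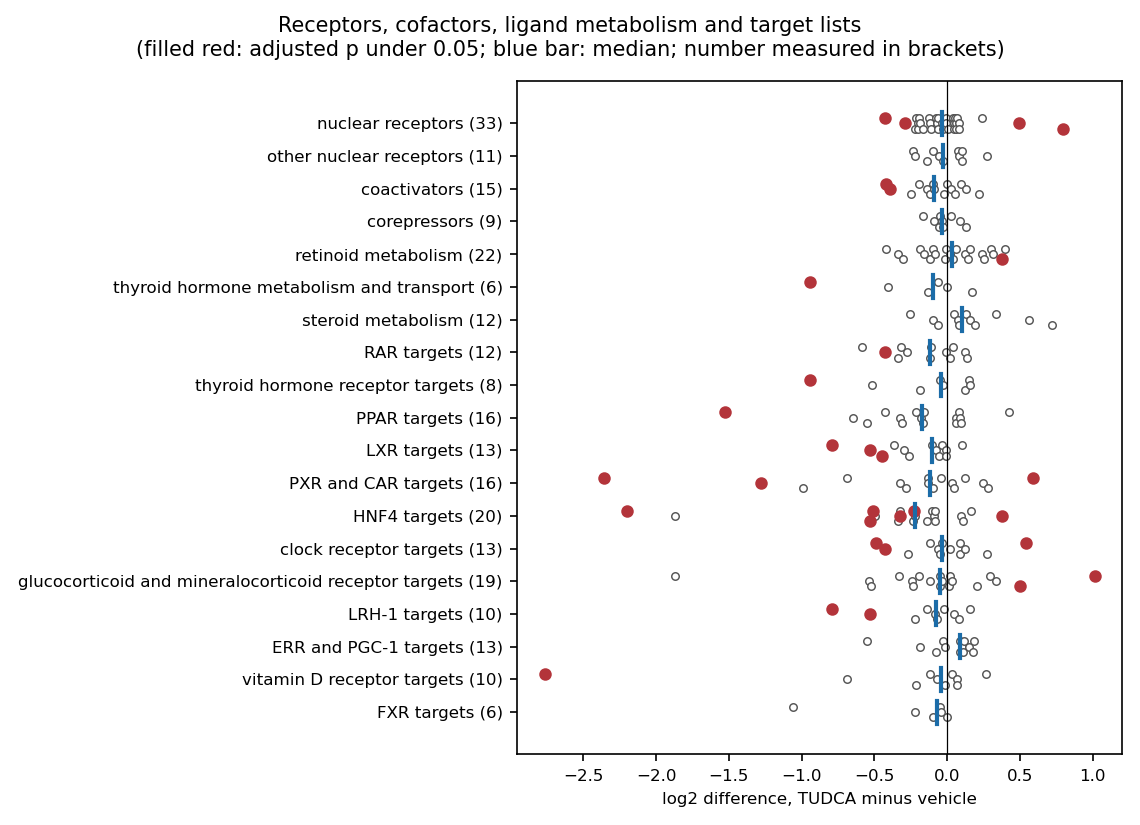
Log2 difference (TUDCA minus vehicle, horizontal axis) of every measured gene of the receptor family, of its cofactors, of ligand metabolism and of target lists, 1 row per list with the number measured in brackets. Red points passed over all probe sets and blue bars are medians, which run from −0.22 (HNF4 targets) to 0.10 (steroid metabolism), and S100g at −2.77 is the leftmost point. Genes with dim signal are plotted at their fitted difference.

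Over all pathway and target lists together, 5 of 204 distinct genes outside the 33 receptors rose and 18 fell. That is 11.3% in either direction, where 2.52% of all probe sets passed (1.00% higher and 1.52% lower). The median log2 difference of the 204 was −0.05. Of the 204 genes 28 were dim in both groups, against 8763 of the 23991 probe sets, so these shares compare sets of unlike signal. These lists were compiled with earlier results of the same arrays known, so the share of 11.3% is a description.

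**Figure D5:**
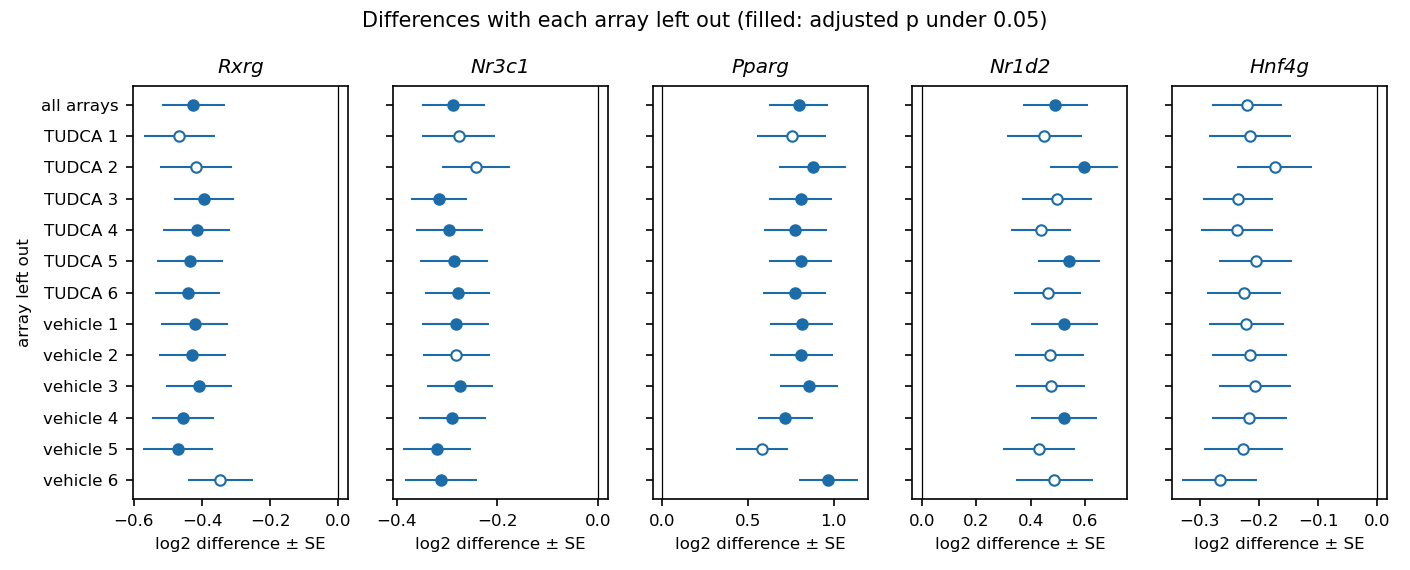
Log2 difference ± SE (horizontal axis) of the 4 receptors that passed and of Hnf4g, with all arrays (top) and with each array left out in turn (rows), filled where the adjusted p was under 0.05. Pparg passed in 10 of 12 omissions, Rxrg and Nr3c1 in 9 each, Nr1d2 in 4 and Hnf4g in 0, and the sign was the same throughout.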

How the data were processed

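The deposited values are log2 intensities of probe sets, which the authors made with the oligo package and RMA per the submitters' processing notes, which give no versions. Background correction, quantile normalisation and probe summarisation belong to that algorithm, and a change common to every transcript is removed by it. Array medians lay between 5.90 and 5.95, and correlations between arrays from 0.984 to 0.993. The number of arrays limits the precision. Gene names came from the annotation of the platform (21557 named 1 gene, 787 several, 1647 none).

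Treatment and number range were fitted on all 23991 probe sets with limma 3.58.1 in R 4.3.3 (eBayes with a trend, two-sided), and the script was tested on simulated data. The members and lists were chosen with earlier results of these data known. Given with all values were receptors past the threshold and up to 10 more with an unadjusted p under 0.05. Of each list up to 4 genes past the threshold were named, or the gene with the smallest p. A gene's value was that of its probe set with the highest mean. Alternatives were other models, number ranges, filters, normalisations and the omission of each array. Protein sequences were not used here.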

Additional observations from a re-analysis of the deposited data

Results flagged for a closer look

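Single arrays stood apart from the other 5 of their group in 6 of 66 groups of receptor values and in 3 of the 54 groups of other named genes, by the gap to the nearest array relative to the range of the group. Chance flags about 1 in 20 groups. Among receptors, Ppard was at 9.75 in vehicle replicate 5, with the other vehicle arrays from 8.87 to 9.19. Rora was at 6.20 in TUDCA replicate 2, with the others from 6.60 to 6.80. Esr1 was at 6.37 in TUDCA replicate 3, with the others from 5.91 to 6.08, and Nr3c2 was at 8.30 in TUDCA replicate 4, with the others from 8.07 to 8.15. Nr2f1 was at 5.69 in TUDCA replicate 6, with the others from 5.35 to 5.43, and Esr2 was at 5.85 in vehicle replicate 1, with the others from 5.47 to 5.60. None of these 6 receptors passed the test between the groups. Of the other genes, Hsd3b3 was at 6.36 in vehicle replicate 5 (the others from 7.58 to 8.07), Bhlhe40 at 9.48 in vehicle replicate 4 (the others from 8.88 to 9.06) and S100g at 7.34 in TUDCA replicate 2 (the others from 9.20 to 10.31).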

How the results depend on the processing

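None of the 4 receptors that passed changed sign under any of the alternatives run, and 15 of the other 29 changed sign under at least 1 without passing in either direction. Leaving out 1 array gave 0 to 2 receptors higher and 0 to 2 lower, against 2 and 2 with all arrays, 2 to 6 pathway and target genes higher (5 with all arrays) and 9 to 21 lower (18), and 91 to 292 probe sets higher (241) and 151 to 417 lower (364). Without TUDCA replicate 1 no receptor passed in limma. In the low range alone 0 receptors were higher and 1 lower, and in the high range alone 0 and 0, with 1 and 0 pathway and target genes and 6 and 3 probe sets. With the replicate block and number range the counts were 1 and 0 receptors, 2 pathway and target genes higher, and 85 and 190 probe sets, and with the replicate block without number range 1 receptor was lower. Whether the replicate numbers pair mice is not known. Correlations between the deviations of same-numbered arrays from their group means ran from −0.06 to 0.26. They were not compared with those of differently numbered arrays, so they cannot decide this. Without the number range 1 receptor was lower and 3 pathway and target genes higher. Variances without a trend gave 1 receptor higher and 1 lower. Array weights gave 436 probe sets higher, and a threshold of 0.1 gave 429. Hnf4g passed with dim probe sets left out (adjusted p = 0.0441). Beyond fewer arrays or genes entering a fit, the causes were not tested. Background correction was not varied, and signal near background limits Rxrg and Pgr most.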
